A study of Rattus norvegicus with 16 samples.

Results

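The rat genes whose symbol is Zfp followed by a number alone were followed through the hippocampus and the blood of injured and sham-operated rats. A gene was counted where it had a row of its own symbol in the deposited table of a tissue, with an OK status in all 8 libraries of that table, and the row with the highest mean stood for it. This gave 160 genes in at least 1 table, of 16625 gene symbols in all. There were 155 in the table of the CA1 field, 158 in the table of white blood cells (WBC) and 153 in both. Zfp259 and Zfp91 had such a row in CA1 only, and Zfp251, Zfp26, Zfp426, Zfp524 and Zfp879 in WBC only, since in the other table their row named a second gene too. In CA1 13 of the genes had more than 1 row, and in WBC 15. The status requirement left out no numbered Zfp row.

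The animals were male Sprague-Dawley rats of 200 to 240 g, and their age was not given. They received a fluid percussion injury, a pressure pulse to the brain that models traumatic brain injury (TBI), or sham surgery, and tissue was taken 1 week later, after a test of learning. Poly-A RNA was sequenced from CA1, a hippocampal field rich in pyramidal neurons, and from WBC, with 4 sham and 4 TBI libraries for each tissue. The labels number the samples of a group but do not say which came from 1 animal, so p-values measure the spread between these samples, which may be technical in part.

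Most numbered Zfp genes encode C2H2 proteins, in which short loops held by zinc ions read DNA bases in a row. Many carry a KRAB domain, through which they recruit the co-repressor Trim28 and the histone methyltransferase Setdb1 to silence transposons and imprinted loci. The symbol is given by sequence and not by task, so the set also holds RNA-binding proteins, ubiquitin ligases and ribosome factors. Many of these genes arose by tandem duplication and share long stretches of sequence, so fragments of close relatives may be split between them, and without strand information those of overlapping genes cannot be told apart.

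The unit is FPKM, in which fragment numbers are divided by transcript length and by library size, so levels can be compared between genes. The number of fragments behind a library is unknown. FPKM over all rows summed to 1726840 to 3520670 in CA1 libraries and to 482286 to 832725 in WBC libraries. The 10 highest rows held 69.0 to 82.8% of that sum in CA1 and 18.6 to 35.8% in WBC, and WBC TBI 1 had the lowest sum of its tissue. The tissue labels were checked on markers. Of the 11 pyramidal neuron markers with a row in CA1 all but Fibcd1, which is listed at 0, had values above 0, and they summed to 6061 to 7899 FPKM in sham libraries. In WBC sham libraries the same list summed to 818 to 1155 FPKM. It includes Nrgn, which is also in the list of platelet markers used below. T cell markers summed to 1159 to 1555 FPKM in WBC sham libraries against 32.4 to 37.8 in CA1 sham libraries.

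The numbered Zfp genes were broadly present at low to moderate levels. In CA1 141 of 155 (91.0%) had a mean of at least 1 FPKM over the 8 libraries, against 62.8% of all symbols. In WBC 122 of 158 (77.2%) reached it, against 52.8%. Few were abundant: 31 genes in CA1 (20%) and 36 in WBC (22.8%) had at least 10 FPKM, against 35.2% and 28.8% of all symbols. The median level was 5.07 FPKM in CA1 and 4.64 in WBC. Zfp260, Zfp566 and Zfp7 were listed at 0 in every library of both tables, and Zfp352, Zfp474, Zfp697 and Zfp74 in every WBC library. Libraries of a group were close to each other, with a median coefficient of variation over the 4 sham libraries of 8.77% in CA1 and 11.5% in WBC among the genes at 1 FPKM or more.

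The highest level in CA1 was that of Zfp238, now called Zbtb18, a repressor needed for the development of cortical neurons. It stood at 160.2, 207, 199 and 198 FPKM in sham 1 to 4 and at 184, 129.8, 169 and 138 FPKM in TBI 1 to 4. The TBI libraries lay lower for the most part, but TBI 1 and TBI 3 were above sham 1, so the groups overlap. Next came Zfp706, a small protein linked to the control of translation, at 94.3 ± 3.29 FPKM (SD, n = 4) in sham. Zfp365, which binds the scaffold protein Disc1 and acts in neurite growth, stood at 72.6 ± 9.35 FPKM in CA1 sham. Zfp637 (46.2 ± 3.47 FPKM in sham) and Zfp180 (40.4 ± 2.96 FPKM) completed the 5 highest. The level of Zfp706 exceeded that of Zfp365 in every library, while Zfp637 and Zfp180 lay closer to each other.

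In WBC a single gene stood far above the rest. Zfp36, or tristetraprolin, is a CCCH protein that binds AU-rich elements in cytokine mRNAs and brings in the deadenylase that shortens their poly-A tails. Its level was 125, 131, 111 and 126 FPKM in WBC sham 1 to 4 and 142, 146, 124 and 103 FPKM in TBI 1 to 4. The injured libraries spread on both sides of the sham libraries. The next levels, with the SD over 4 sham libraries, were 56.1 ± 7.27 FPKM for Zfp706 and 29.5 ± 3.002 for Zfp386. Zfp384, a factor known from fusions in acute leukaemia, stood at 28.2 ± 1.88 FPKM, and Zfp110, a partner of the neurotrophin receptor p75, at 28 ± 3.30. The levels of Zfp386, Zfp384 and Zfp110 differed by less than their spread.

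The tables of the tissues were normalized separately, so levels were set side by side with no test. Of 153 genes in both tables, 64 were higher in all 8 CA1 libraries than in any WBC library, 39 were higher in all 8 WBC libraries, and 50 overlapped. The ratio of sham means, taken with 0.5 FPKM added to each, was within 2-fold for 85 genes, at least 4-fold towards CA1 for 20 and at least 4-fold towards WBC for 7. These counts were not worked out over all symbols of both tables. Whether the split between the tissues is particular to the Zfp genes is therefore not known. The 5 largest ratios towards CA1 were those of Zfp483 (40.0), Zfp365 (30.0), Zfp532 (17.2), Zfp423 (17.1) and Zfp57 (16.2). Zfp423, a partner of EBF factors in neural and fat cell development, stood at 8.43 ± 0.251 FPKM in CA1 sham and at 0.0230 ± 0.0176 in WBC sham. Zfp57, a KRAB protein that keeps methylation at imprinted genes, stood at 8.61 ± 0.921 and 0.0618 ± 0.0955 FPKM.

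Towards WBC the ratios were 20.9 for Zfp36, 14.8 for Zfp217, 10.8 for Zfp51, 7.26 for Zfp458 and 6.41 for Zfp202. Zfp217, known as an oncogene that recruits co-repressors, stood at 0.772 ± 0.0415 FPKM in CA1 sham and 18.3 ± 1.05 in WBC sham. Zfp36 was at 5.42 ± 1.68 FPKM in CA1 sham, with a coefficient of variation of 31.0%, next to Zfp865 (45.8%) the largest among the genes tested there. In the TBI groups the ratios of these same genes were 24.0, 15.5, 14.3, 7.82 and 6.47, so each stayed within 1.5-fold of its sham ratio. The plot of sham levels by tissue shows these genes away from the line of equal levels.

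**Figure D1:**
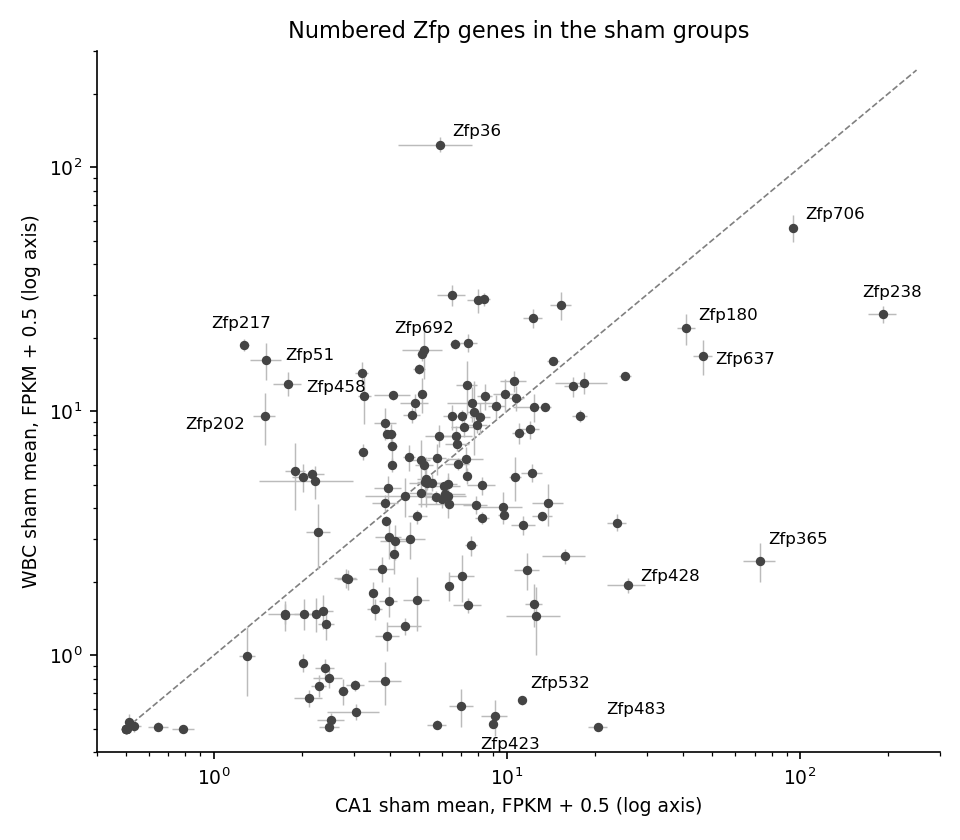
Mean FPKM + 0.5 of 153 numbered Zfp genes in the 4 CA1 sham libraries (horizontal log axis) and the 4 WBC sham libraries (vertical log axis), with bars of 1 SD and a dashed line of equal levels. Zfp36, at 123 FPKM, is the highest point on the WBC axis, and Zfp238, at 191 FPKM, the highest on the CA1 axis.

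The bases upstream of the transcription start were described because the genes share a protein family. RefSeq gave an entry for 159 of the 160 genes (150 by symbol, 9 by an older symbol) and a promoter for 133, from the build GRCr8, which differs from the build rn5 of the deposited files. Zfp772 was left unmatched, since RefSeq now uses that symbol for the gene formerly called Zfp978 and lists it as an older symbol of another. The 250 bases before the start had a median GC content of 57.2%, with 13 CpG dinucleotides. Over all 33469 RefSeq promoters these were 51.2% and 5, and over 8792 promoters of genes tested here 60.4% and 16. Motifs were searched as exact letters on both strands. The windows of 4 genes are shown, in lower case with every match in capitals: the most abundant gene of each tissue, and a gene that was higher and one that was lower in WBC after injury.
Zfp36 (chr1:92799109-92799358, minus strand): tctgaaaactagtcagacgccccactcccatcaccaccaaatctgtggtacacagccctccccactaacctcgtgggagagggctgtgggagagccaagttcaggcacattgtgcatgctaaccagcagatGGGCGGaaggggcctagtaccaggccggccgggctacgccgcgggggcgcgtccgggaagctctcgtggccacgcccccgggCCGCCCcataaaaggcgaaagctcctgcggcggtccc
Zfp238 (chr13:91971352-91971601, plus strand): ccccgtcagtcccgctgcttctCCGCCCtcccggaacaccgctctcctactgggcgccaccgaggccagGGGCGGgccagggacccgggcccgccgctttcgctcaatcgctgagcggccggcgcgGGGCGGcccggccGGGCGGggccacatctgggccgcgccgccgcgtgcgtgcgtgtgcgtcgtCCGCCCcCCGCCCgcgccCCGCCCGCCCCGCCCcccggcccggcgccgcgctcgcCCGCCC
Zfp846 (chr8:27396061-27396310, plus strand): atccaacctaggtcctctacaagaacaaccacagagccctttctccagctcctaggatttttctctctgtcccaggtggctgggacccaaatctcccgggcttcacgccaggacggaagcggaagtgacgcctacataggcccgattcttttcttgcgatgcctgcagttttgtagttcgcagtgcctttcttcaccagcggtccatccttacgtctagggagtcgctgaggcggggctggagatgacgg
Zfp691 (chr5:138070270-138070519, minus strand): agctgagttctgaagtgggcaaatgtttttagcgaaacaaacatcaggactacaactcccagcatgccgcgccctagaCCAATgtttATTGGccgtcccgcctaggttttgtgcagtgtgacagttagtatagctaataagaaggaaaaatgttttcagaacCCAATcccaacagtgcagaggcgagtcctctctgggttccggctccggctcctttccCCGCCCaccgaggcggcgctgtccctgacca

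The window of Zfp238 was the richest of the 4, with 44 CpG dinucleotides and 83.6% GC, and its capitals are all GC boxes (GGGCGG). That of Zfp36 held 2 GC boxes, that of Zfp691 1 GC box and 3 CCAAT boxes (CCAAT), and that of Zfp846 no match. The ETS core CCGGAAG was found in 26 of 133 windows (19.5%), against 7.27% of all RefSeq promoters and 14.4% of those of genes tested here. The GC box was found in 45.1%, against 30.5% and 58.1%. The NRF1 motif GCGCATGCG was found in 6.02% (1.35% and 2.96%), an exact YY1 motif in 3.01% (0.335% and 0.728%) and the CCAAT box in 36.1% (34.0% and 34.5%). In WBC the median TBI difference was 0.09 on the log2 scale both for the 21 tested genes with the ETS core and for the 82 without it. It was 0.08 for 49 genes with the GC box and 0.10 for 54 without, and 0.17 for 5 with the NRF1 motif and 0.09 for 98 without. For the YY1 motif it was 0.07 (3 genes) and 0.09 (100), and for the CCAAT box 0.09 on both sides (37 and 66 genes). A match is a stretch of letters and not shown to be a bound site, and matches of a motif can overlap each other.

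In CA1 no numbered Zfp gene passed the test of TBI against sham. Differences are TBI minus sham in log2(FPKM + 0.5), which understates those of low genes, tested by limma over all rows with a mean of at least 1 FPKM, with a Benjamini-Hochberg adjusted p under 0.05 as the threshold. Of 141 genes tested 0 passed, where 0.00683% of all 14637 rows did. At an unadjusted p under 0.05 there were 0 higher and 1 lower, where 2.54% and 2.6% of all rows lay. The differences were small, from -0.31 to 0.19 with a median of -0.03, against -0.01 over all rows. Direction was uneven: 43 genes were higher and 98 lower, so 30.5% were above 0, where 46.7% of all rows were.

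The gene at an unadjusted p under 0.05 in CA1 was Zfp238, whose values are given above: its mean was 191 ± 21.0 FPKM in sham and 155 ± 25.5 in TBI, a log2 difference of -0.31 ± 0.13 (SE, limma adjusted p = 0.891). The BTB-domain protein Zfp131 had separate groups, at 13.5, 13.6, 14.8 and 13.6 FPKM in sham 1 to 4 and 12.3, 13.5, 12.4 and 12.8 in TBI 1 to 4. Its highest TBI library lay just under its lowest sham library (log2 -0.12 ± 0.06 SE). Zfp367 was the other tested gene with separate groups, at 5.72 to 6.01 FPKM in sham and 5.35 to 5.71 in TBI (log2 -0.09). Groups with TBI lower did not overlap in 1.6% of all rows. The lower side of the CA1 comparison also held Zfp9 (-0.26), Zfp652 (-0.19), Zfp709 (-0.14), Zfp84 (-0.13) and Zfp445 (-0.12), a KRAB protein that acts with Zfp57 at imprinted loci. A second row of Zfp9, at 1.39 FPKM on average against 1.78 for the row used, lay the other way, at 0.42.

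On the higher side in CA1 no tested gene had separate groups, where 1.28% of all rows did. The smallest p-values belonged to Zfp503, a repressor known from the developing striatum, at 2.36, 1.68, 1.90 and 1.91 FPKM in sham 1 to 4 and 2.44, 2.29, 2.30 and 2.18 in TBI 1 to 4. All TBI libraries but TBI 1 lay under sham 1 and above the other sham libraries (log2 0.19 ± 0.10 SE). Zfp692 (0.19), Zfp593 (0.18), Zfp64 (0.16), Zfp775 (0.11), Zfp423 (0.11), Zfp422 (0.09) and Zfp689 (0.09) followed. All 16 genes named here for CA1 had a limma adjusted p of 0.891. Zfp14, at 0.0340 FPKM on average and so not tested, was the only untested gene whose TBI libraries all lay above sham.

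CA1 sham 1 stood apart among the sham libraries for these genes. Relative to the mean of the 4 sham libraries, the median of the tested Zfp genes was -0.07 in sham 1 and 0.01, 0.02 and 0.04 in sham 2 to 4, while it was -0.05, -0.03, -0.01 and -0.05 in TBI 1 to 4. The median over all named genes lay between -0.02 and 0.01 in these 8 libraries. Without sham 1 limma gave 2 genes higher and 10 lower at an unadjusted p under 0.05, and again 0 passed, with a median difference of -0.05. The share of all rows at that p without sham 1 was not worked out, so these counts have no background beside them. In that refit 26.2% of the Zfp genes and 45.1% of named genes were above 0. The number of genes above 0 ran from 37 to 54 of 141 when each library was left out.

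In WBC the numbered Zfp genes lay above sham for the most part, and again no gene passed. Of 122 tested 0 passed in limma (0% of all 13413 rows). At an unadjusted p under 0.05 there were 21 genes higher (17.2%), where 7.82% of all rows lay, and 4 lower (3.28%), where 12.5% lay. In all, 94 genes (77.0%) were above 0, where 49.6% of all rows were. After quantile normalization 78.7% of the Zfp genes and 59.8% of named genes were above 0. The median difference was 0.09 on the log2 scale, with quartiles at 0.00 and 0.21, against 0.00 over all rows and -0.01 over the 8645 named genes. The TBI libraries all lay above the sham libraries for 14 tested genes (11.5%, where 5.61% of all rows did) and all below for 3 (2.46%, where 8.63% did).

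Named genes of low level lay above 0 more often than abundant ones, so the Zfp genes were also set beside named genes of their own level. With 1 to 5 FPKM 39 of 48 Zfp genes (81.2%) and 60.9% of 2125 named genes were above 0, with medians of 0.11 and 0.06. Between 5 and 20 FPKM it was 48 of 64 (75%) and 56.3%, with medians of 0.08 and 0.03. From 20 FPKM it was 7 of 10 (70%) and 28.9%, with medians of 0.07 and -0.10. In CA1 the medians in these ranges were -0.03 each, against -0.02, -0.02 and 0.00 for named genes. The numbered Zbtb genes, which join a BTB domain to the same kind of finger, lay alike in WBC, with 21 of 24 above 0 and a median of 0.09, while for the numbered Klf genes it was 7 of 12 and 0.03.

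**Figure D2:**
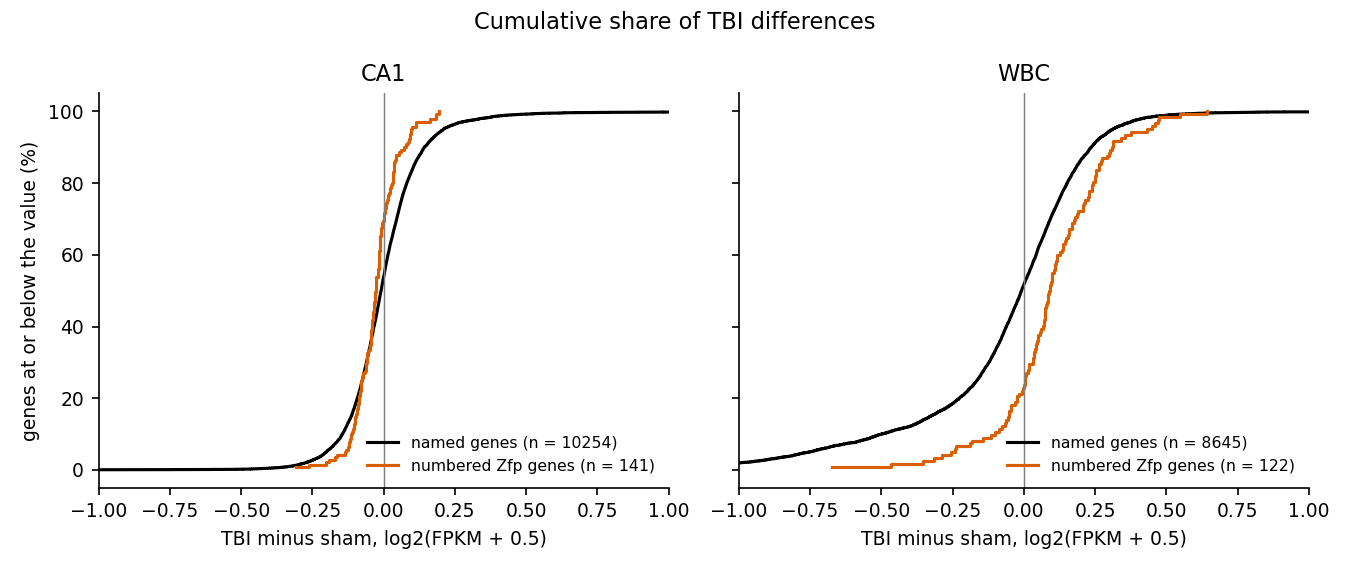
Cumulative share of TBI minus sham differences in log2(FPKM + 0.5) for the numbered Zfp genes (orange) and all named genes tested (black), in CA1 and WBC. The horizontal axis is drawn from -1 to 1, so some named genes lie outside it. In WBC 77.0% of the Zfp genes and 48.4% of the named genes are above 0, and in CA1 30.5% and 46.1%.

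The smallest p on the higher side in WBC was that of Zfp467, which acts in the choice between fat and bone cell fate. It stood at 4.21, 4.49, 5.06 and 4.14 FPKM in sham 1 to 4 and at 5.83, 5.81, 5.67 and 6.47 in TBI 1 to 4. The groups did not overlap, and its log2 difference was 0.38 ± 0.09 (SE, limma adjusted p = 0.131). Zfp846 stood at 2.21, 2.61, 1.995 and 2.47 FPKM in sham and at 3.56, 3.16, 3.48 and 3.16 in TBI, again with separate groups (0.45 ± 0.11 SE, limma adjusted p = 0.132). Zfp868 stood at 17.2, 19.1, 18.0 and 19.0 FPKM in sham and at 21.3, 21.5, 22.8 and 25.4 in TBI (0.30 ± 0.08 SE, limma adjusted p = 0.134).

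Zfp692, which binds a promoter element of gluconeogenic genes, had the largest positive difference among the 122. Its values were 12.3, 21.8, 15.6 and 19.8 FPKM in sham 1 to 4 and 24.9, 24.96, 26.2 and 31.8 in TBI 1 to 4 (log2 0.64 ± 0.18 SE, limma adjusted p = 0.141). The sham libraries varied by nearly as much among themselves as the groups lay apart. Zfp105 (log2 0.47) and Zfp142 (0.43) overlapped in 1 library each: TBI 4 of Zfp105 lay under sham 4, and TBI 2 of Zfp142 under sham 2. Zfp870 was at 9.70 to 10.2 FPKM in sham and 11.1 to 13.7 in TBI (0.25), and Zfp513 at 20.5 to 25.3 and 26.0 to 30.9 (0.26), both with separate groups.

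Of the 8 genes with the smallest p on the lower side in WBC, Zfp394, Zfp524 and Zfp956 had separate groups. Zfp394 stood at 15.1, 16.8, 17.6 and 17.4 FPKM in sham 1 to 4 and at 10.8, 15.0, 13.3 and 9.48 in TBI 1 to 4 (log2 -0.47 ± 0.14 SE, limma adjusted p = 0.145). TBI 2 lay just under the lowest sham library. Zfp524 ranged over 13.2 to 15.5 FPKM in sham and 10.9 to 12.3 in TBI (-0.24), and Zfp956 over 3.70 to 4.17 and 2.95 to 3.62 (-0.25). Zfp691 had the largest difference on this side, -0.67 ± 0.21 SE, but its sham 2 (4.09 FPKM) lay below TBI 2 (4.16) and TBI 3 (4.32). Zfp180 (-0.32), Zfp251 (-0.29), Zfp689 (-0.19) and Zfp444 (-0.14) overlapped between groups. A second, lower row of Zfp689 stood at 0.11.

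**Figure D3:**
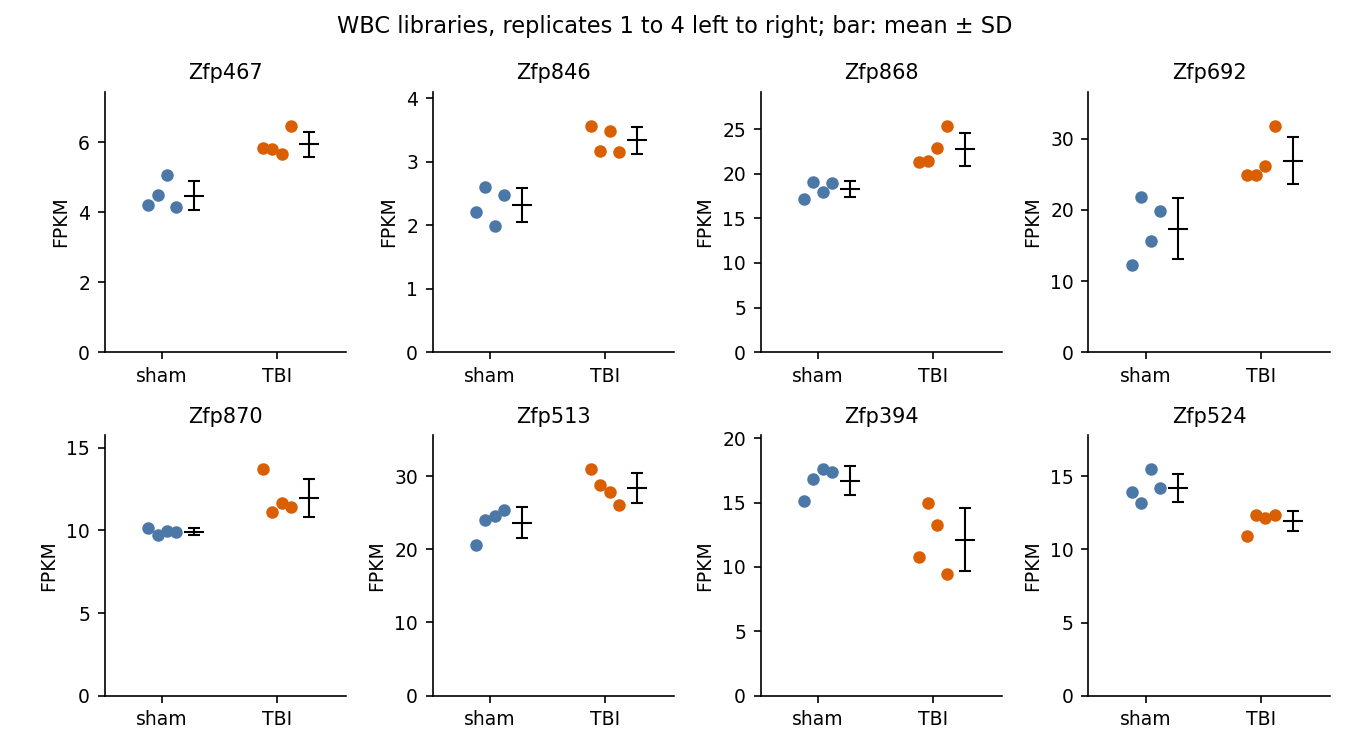
FPKM in each WBC library for 6 Zfp genes that were higher and 2 that were lower after injury (points: replicates 1 to 4 from left to right, blue sham, orange TBI; bars: mean ± SD, n = 4; axes start at 0). The panels show only genes with separate groups, so in all 8 panels the groups do not overlap. Among the 122 tested genes 14 (11.5%) were separate with TBI higher and 3 (2.46%) with TBI lower. Of all rows 5.61% and 8.63% were. None of the genes shown passed the adjusted threshold.

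The lean was present in each injured library. Relative to the mean of the 4 WBC sham libraries, the median of the tested Zfp genes was -0.05, 0.02, -0.01 and 0.03 in sham 1 to 4 and 0.17, 0.12, 0.07 and 0.09 in TBI 1 to 4. The TBI medians lay above all sham medians, with TBI 1 the highest. The median over all named genes stayed between -0.03 and 0.02. Without TBI 1 there were 10 genes higher and 3 lower at an unadjusted p under 0.05, and 92 of 122 above 0 (median 0.08). The share of all rows at that p was not worked out for this refit. The number above 0 was lowest without sham 1, at 85 of 122 (69.7%, median 0.07), where 48.3% of named genes were above 0. A block for the sample number, which the labels do not tie to an animal, left 12 higher at an unadjusted p under 0.05. The share of all rows was not worked out for that fit either, so the 12 have no background beside them.

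**Figure D4:**
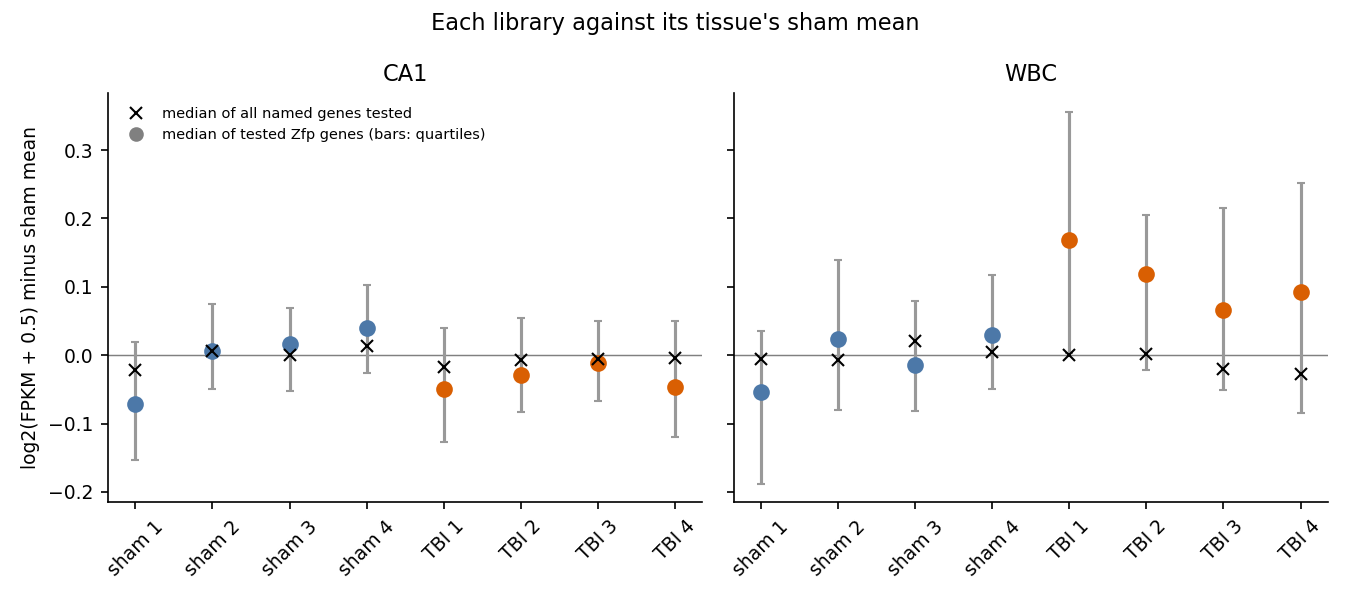
Median over the tested Zfp genes (circles; blue sham, orange TBI; bars: quartiles over genes) and over all named genes (crosses) of each library's log2(FPKM + 0.5) minus the mean of the 4 sham libraries of its tissue. In WBC the 4 TBI medians (0.07 to 0.17) lie above the sham medians (-0.05 to 0.03), and in CA1 the groups overlap.

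Markers of blood cell types differed between the same WBC libraries. All 18 tested erythroid markers were lower in TBI, their sum running from 16420.2 to 25186 FPKM in sham and from 6550 to 15494 in TBI. The hemoglobin symbols looked up (Hbb, Hba1, Hba2 and Hba-a2) had no row that could be used. All 13 tested platelet markers were lower (9050 to 12311 and 2957 to 8470 FPKM), with Gng11 listed at 0. The B cell markers were lower in 11 of 11 (2567 to 3203 and 1713 to 2787 FPKM), the T cell markers higher in 13 of 15 (1159 to 1555 and 1154 to 1774) and natural killer markers higher in 9 of 10 (565 to 784 and 558 to 977). Of 9 neutrophil markers 4 were higher and 5 lower (679.9 to 1096 and 386 to 1261 FPKM). None of these markers passed, and their part in the Zfp differences was not tested. In bulk samples fewer cells of a type and less RNA per cell cannot be told apart.

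In CA1 markers of several cell types leaned to 1 side. Choroid plexus markers, from tissue beside the hippocampus, were higher in 11 of 12 and summed to 69.7 to 1447 FPKM in sham and 229 to 2887 in TBI, with Otx2 listed at 0. Pyramidal neuron markers were lower in 9 of 10 (6061 to 7899 and 6172 to 6637 FPKM), astrocyte markers in 6 of 8 (2279.9 to 3186 and 2283 to 2679), and endothelial markers in 8 of 8 (84.6 to 140.4 and 84.2 to 95.4). Oligodendrocyte markers were split 4 and 4 (4666 to 6254 and 4579 to 6870.2 FPKM) and microglia markers 4 higher and 5 lower (181 to 206 and 171 to 228). Of 11 tested erythroid markers 6 were higher (318 to 349 and 294 to 334 FPKM). Their part in the CA1 differences was not tested.

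Members with known tasks outside DNA binding were also read out. Of 7 tested genes for RNA and the ribosome, 2 were higher in CA1 and 6 in WBC, and none was at an unadjusted p under 0.05 in either tissue. Zfp36 had a log2 difference of -0.20 ± 0.31 (SE) in CA1 and 0.05 ± 0.12 in WBC. Zfp598, the ligase that marks collided ribosomes, stood at 6.85 ± 0.540 and 6.80 ± 0.414 FPKM in CA1 sham and TBI, and at 18.6 ± 1.59 and 19.3 ± 1.10 in WBC. Zfp622, a factor of large subunit maturation, stood at 5.52 and 5.48 FPKM in CA1 and at 3.86 and 4.09 in WBC. Zfp638, an RNA-binding protein that also silences foreign DNA, stood at 16.3 and 15.8 FPKM in CA1 and 12.1 and 12.5 in WBC. The double-stranded RNA binder Zfp346 was at 3.16 ± 0.220 FPKM in WBC sham and 3.75 ± 0.527 in TBI (log2 0.21 ± 0.12 SE), and Zfp830 at 11.0 and 11.1.

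Among genes known from neural development, Zfp238 and Zfp423 are given above. Zfp365 stood at 72.6 ± 9.35 FPKM in CA1 sham and 69.4 ± 5.39 in TBI, and Zfp292 at 4.23 and 4.11. Zfp521, an EBF partner in progenitors, stood at 2.54 ± 0.620 and 2.30 ± 0.167 FPKM in CA1. Of the blood and immune group, Zfp384 (28.2 and 28.1 FPKM in WBC sham and TBI), the GC-box binder Zfp148 (12.6 and 12.1) and Zfp217 (18.3 and 17.8) differed by less than their spread. The ubiquitin ligase Zfp91 was at 36.3 ± 2.32 and 35.6 ± 1.58 FPKM in CA1. The stem cell factor Zfp281 stood at 6.74 and 5.92 FPKM in CA1 and 5.87 and 5.89 in WBC.

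In the group of genes for SUMO and chromatin, all 5 tested were lower in CA1 and all 5 higher in WBC, by medians of -0.05 and 0.10. The tested Zfp genes as a whole leaned the same way. Of them 30.5% were higher in CA1 and 77.0% in WBC, with medians of -0.03 and 0.09. Zfp451, a SUMO ligase, stood at 8.31, 9.22, 8.12 and 7.57 FPKM in WBC sham 1 to 4 and 10.8, 8.75, 11.1 and 9.97 in TBI 1 to 4. TBI 2 lay within the sham range (log2 0.27 ± 0.10 SE, limma adjusted p = 0.180). In WBC Zfp592, a partner of a chromatin reader complex, differed by 0.04, Zfp609 by 0.00, Zfp644 by 0.10 and Zfp668 by 0.14, while a second, lower row of Zfp668 stood at -0.21.

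Whether the difference in WBC departs from that in CA1 was asked with 1 limma model of both tissues, through its interaction term, over 7570 genes tested in each. Of 115 Zfp genes 0 passed, where 0.41% of the 7570 genes did. At an unadjusted p under 0.05, 21 were more positive in WBC, where 7.09% of all genes lay, and 3 more negative, where 12.7% lay. The term was above 0 for 94 of 115 genes, where 49% of all genes were. By sign, 67 genes were lower in CA1 and higher in WBC, 24 higher in both, 14 lower in both, and 10 higher in CA1 and lower in WBC.

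The 4 smallest p-values of that term belonged to Zfp846 (0.00 in CA1 and 0.45 in WBC, difference 0.45 ± 0.11 SE, limma adjusted p = 0.0721), Zfp467 (-0.08 and 0.38), Zfp394 (0.09 and -0.47) and Zfp445 (-0.12 and 0.25). Zfp445 had separate groups in WBC, at 4.47 to 5.57 FPKM in sham and 5.58 to 6.91 in TBI, and overlapping ones in CA1. Without WBC TBI 2 the term of Zfp394 passed, at -0.66 ± 0.14 SE (limma adjusted p = 0.0289), against -0.55 ± 0.16 SE with all libraries (limma adjusted p = 0.0944). Among the WBC TBI libraries TBI 2 was the nearest to sham for Zfp394, at 15.0 FPKM, so leaving it out enlarges the term. The share of all genes passing in that refit was not worked out. The plot of differences in both tissues shows most points above the horizontal line.

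**Figure D5:**
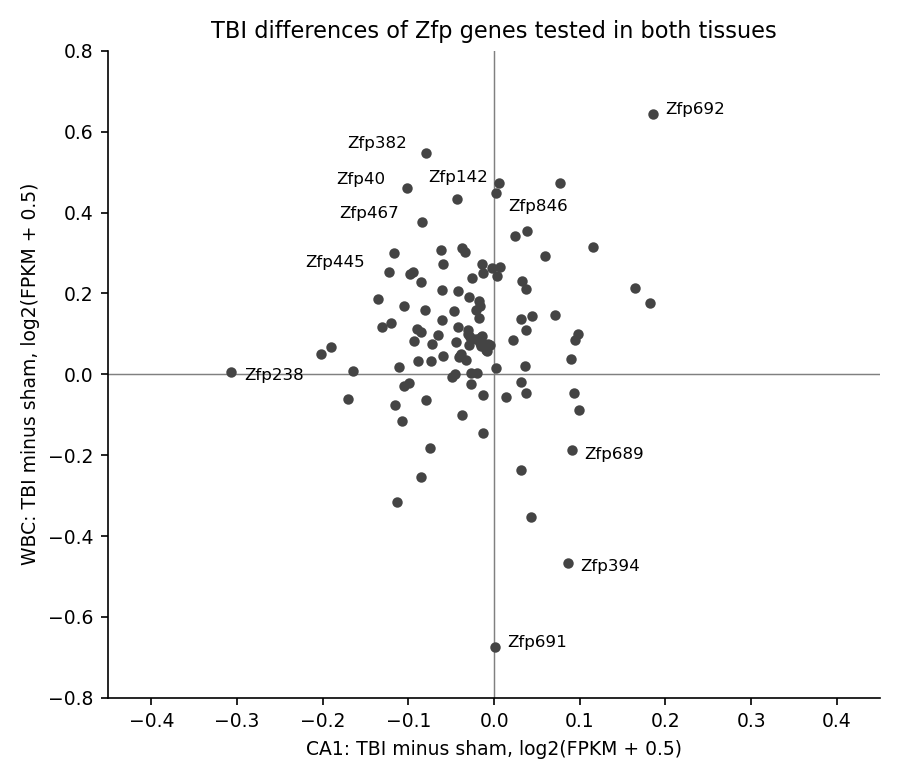
TBI minus sham differences in log2(FPKM + 0.5) of the 115 Zfp genes tested in both tissues, CA1 on the horizontal and WBC on the vertical axis, which is drawn on a wider scale. Most points lie above 0 on the WBC axis, and the upper left panel region holds 67 genes.

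Neighbours on the chromosome were looked up in the RefSeq gene order of GRCr8. There were 16 runs of 2 or more numbered Zfp genes with no other protein-coding gene between them, holding 36 of the 160 genes. The longest run was Zfp26, Zfp426, Zfp266 and Zfp846, with log2 differences in WBC of 0.24, 0.03, 0.21 and 0.45. In the run of Zfp786, Zfp398 and Zfp282 the 2 genes tested in WBC were at 0.31 and 0.27, and in CA1 the 3 stood at -0.13, -0.06 and 0.01. Zfp35 and Zfp191, side by side, were at -0.02 and -0.12 in WBC. Neighbouring Zfp genes may share sequence and fragments, which was not tested for these runs, so their values cannot be taken as independent.

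The genes that act with these proteins were described by counts. Of 18 tested co-repressor genes of the KRAB pathway, 10 were higher in CA1 and 12 in WBC, with medians of 0.04 and 0.06, and 0 passed. Trim28 itself stood at 35.3 ± 2.68 and 34.9 ± 3.43 FPKM in CA1 sham and TBI and at 39.1 ± 3.15 and 39.9 ± 2.98 in WBC, and Setdb1 at 20.6 ± 1.39 and 22.1 ± 0.518 in WBC. The smallest p in CA1 was that of Sumo2 (61.3 ± 10.6 to 82.0 ± 13.4 FPKM, log2 0.42, limma adjusted p = 0.891). In WBC 3 of the 18 genes had separate groups with TBI lower and 1 with TBI higher, where 8.63% and 5.61% of all rows did. Among them the heterochromatin protein Cbx5 was lower (-0.29) and the DNA methyltransferase Dnmt3a was higher (0.19), neither past the threshold.

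Of 21 tested genes for the relatives of Zfp36 and the deadenylation machinery, 14 were higher in WBC, and 7 of 20 in CA1, and 0 passed. Its relative Zfp36l1 stood at 52.8 ± 5.13 and 57.8 ± 6.36 FPKM in WBC. Of known targets of Zfp36, 5 of 8 were higher in WBC, among them Tnf (162 ± 34.8 to 189.6 ± 11.0 FPKM, 0.25) and Socs3 (15.6 ± 2.86 to 20.7 ± 2.30, 0.41), while Pim1 was lower (-0.40). In CA1, 2 of 5 tested targets were higher. Among 15 tested genes that act with Zfp598 in ribosome rescue, 6 were higher and 9 lower in WBC, with Hbs1l at 49.3 ± 3.53 and 32.8 ± 4.81 FPKM (-0.59, limma adjusted p = 0.127) and Gigyf1 at 11.6 ± 0.860 and 15.6 ± 1.67 (0.41, limma adjusted p = 0.127). In CA1 7 of these 15 were higher.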

How the data were processed

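RNA-seq of CA1 and WBC from sham and TBI rats (4 libraries a group) was used as FPKM deposited by the authors. Per the submitters' processing notes, these came from TopHat, TopHat2, Bowtie, Bowtie2, Cufflinks and Cuffdiff on build rn5, from about 1000 ng of RNA per the labels' protocols. The sources used here give no versions, annotation or library-size setting. The spacing of the smallest values gave no clear relative depth, so depth is unknown. The column headers write FPI for the injury, matched to the TBI titles. Of 26031 CA1 and 24779 WBC rows, 8207 and 7054 name no gene. Rows with an OK status throughout and a mean of at least 1 FPKM were tested as log2(FPKM + 0.5) by limma 3.58.1 (trend, 2-sided) in R 4.3.3, Benjamini-Hochberg adjusted over all rows of a fit. Named genes are, per tissue, the 8 smallest p in each direction and the 5 highest levels, the 4 smallest interaction p, the 5 largest tissue ratios each way, and role lists. Others named (Zfp14, untested, neighbours, list genes by small p) were chosen after their values were seen. Members and lists were chosen with earlier results of these data known. Alternatives were pseudocounts, filters, scalings, a block by sample number, and leaving out each library. Python 3.11.15, pandas 2.3.3 and matplotlib 3.10.9 were used.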

Additional observations from a re-analysis of the deposited data

Results flagged for a closer look

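Among the named genes, 210 groups of 4 libraries were looked at for 1 library far from the other 3, by Dixon's gap test at 95%, and 15 (7.14%) held one; chance gives about 1 in 20. In CA1 sham these were Zfp105 in sham 4 (4.31 FPKM, the others at 3.31 to 3.48), Zfp131 in sham 3 (14.8, others 13.5 to 13.6), Zfp64 in sham 3 (5.89, others 4.41 to 4.58) and Zfp9 in sham 1 (2.26, others 1.86 to 1.91). In CA1 TBI it was Zfp458 in TBI 1 (1.13 FPKM, others 1.29 to 1.32). In WBC sham they were Zfp142 in sham 2 (7.34 FPKM, others 5.39 to 5.56), Zfp217 in sham 2 (19.8, others 17.6 to 17.9), Zfp384 in sham 1 (25.5, others 29.0 to 29.5) and Zfp386 in sham 1 (25.02, others 30.6 to 31.4). In WBC TBI they were Zfp148 in TBI 2 (13.7 FPKM, others 11.3 to 11.6), Zfp458 in TBI 1 (14.7, others 12.8 to 12.9), Zfp524 in TBI 1 (10.9, others 12.1 to 12.3), Zfp598 in TBI 3 (17.7, others 19.8 to 19.98), Zfp644 in TBI 2 (4.70, others 5.29 to 5.38) and Zfp689 in TBI 2 (8.80, others 7.39 to 7.57).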

How the results depend on the processing

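The count of Zfp genes passing was 0 in CA1 and in WBC under every alternative run, and in the interaction it ranged from 0 to 1 when each library was left out, the 1 being Zfp394 without WBC TBI 2. At an unadjusted p under 0.05, leaving out a library gave 0 to 2 genes higher and 0 to 10 lower in CA1 (most without sham 1), and 10 to 24 higher and 3 to 5 lower in WBC (fewest higher without TBI 1). Shares of all rows at that p, or past the adjusted threshold, were not worked out for any refit. Samples of equal number do not deviate together throughout (correlations of -0.01 to 0.24 within tissues, between sham and TBI). Between CA1 and WBC samples of equal group and number the correlations were all positive, at 0.05 to 0.20. The interaction model took these samples as independent, and the labels do not say whether they share an animal. With the sample number as a replicate block the CA1 count of lower genes was 0 and the WBC count of higher genes 12. With a minimum mean of 5 FPKM, which tests 74 genes, WBC gave 10 higher and 2 lower. The median difference kept its sign throughout. The share of Zfp genes above 0 in WBC was 73.0% after median-ratio scaling (named genes 46.7%) and 78.7% after quantile normalization (named genes 59.8%), and 69.7 to 79.5% when each library was left out. Quantile normalization moved the WBC median of named genes from -0.01 to 0.05, beside a Zfp median of 0.09, so the Zfp genes lay less far above it. The 36 named differences kept their direction in all 559 values from the alternatives, counted per difference and alternative. Those from the block by sample number equal the main differences in this balanced design, so they could not reverse. The 36 were picked by small p in these same data, which makes a stable direction likely. FPKM without counts gives no depth, so low genes carry an error that is not known.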

Other observations

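Rows that were not chosen to stand for a gene give a measure apart from those above. In WBC 15 symbols had 16 further rows, with a median level of 0.959 FPKM, of which 8 were tested and 3 were above 0. In CA1 5 of 14 further rows were tested and 1 was above 0. Some symbols are present only in rows that name a second gene: in WBC these were Zfp207, Zfp259, Zfp52, Zfp53, Zfp707 and Zfp91.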
